A study of Mus musculus with 346 samples.

Results

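The levels of 10 immediate early genes were described in single cells sorted as epithelium from the mouse mammary gland. The genes were Fos and Fosb, Jun, Junb and Jund, Egr1, Atf3, Ier2, Zfp36 and Klf4. They were chosen by name and matched to the count files by Entrez number. All 10 were among the 25142 genes analysed, and each had reads at every stage. The series held 346 cells of FVB/NJ mice, an inbred strain, sorted as total mammary epithelium and caught in separate chambers of Fluidigm C1 chips. They comprised 144 cells from pre-pubertal glands (2 weeks of age), 136 from pubertal glands (4.7 to 4.9 weeks) and 66 from adult glands (10 weeks). The labels give no treatment and no genetic change for any of the 3 groups, and per the study's methods the mice were female and several were pooled for each sort. No mouse is named for any cell, so each stage was taken as 1 sample and no test was made. All intervals here cover counting error only. Those of levels and shares are exact 95% intervals. Those of log2 ratios join the opposite limits of both levels and are wider than 95% intervals.

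Immediate early genes are transcribed within minutes of a stimulus, from factors that are already present in the cell, and their mRNAs decay quickly. Fos and Jun proteins pair to form AP-1, a dimer that binds DNA and switches on later genes, and the growth factor and stress kinase pathways that feed into this family are used in the mammary gland during growth and remodelling. These genes are also known to respond when a tissue is dissociated into single cells, a step that every cell of the series went through.

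A coverage filter of at least 100000 reads and 1500 detected genes kept 116 pre-pubertal, 119 pubertal and 44 adult cells, 279 in all. Median depth was 296624 reads in pre-pubertal, 574973 in pubertal and 334777 in adult cells, with a range of 109387 to 1189157 over all kept cells. The median share of reads on mitochondrial genes was 3.47%, 10.4% and 9.71% at the same stages. Epcam, Krt14, Krt8 or Krt18, which mark epithelium, was above 40 RPKM (reads per 1000 bases of gene and per 1000000 reads) in 113 of the 119 pubertal and 41 of the 44 adult cells, and in 22 of the 116 pre-pubertal cells, where the epithelial label was thus not borne out for most. The median pre-pubertal cell had reads for 0 of 10 luminal markers and 2 of 10 basal markers, where the median pubertal cell had 8 and 2 and the median adult cell 6 and 6. It also had reads for 10 of 13 markers of Schwann cells, the glia of peripheral nerves, where the median pubertal and adult cell had 1. The summed level of the Schwann list was 15849 counts per 1000000 reads (CPM) at pre-puberty, with single cells from 572 to 76822, and 1393 and 284 CPM at the later stages, where 1 pubertal cell reached 135749 CPM. Of 8 fibroblast markers the median pre-pubertal cell had 3, and the median pubertal and adult cell 1 and 0. The median over cells of their summed level was 5942, 7.91 and 1.37 CPM in that order. From the reads of a whole stage, as for the Schwann list, it was 7823, 2193 and 1474 CPM. The collagen genes Col1a1, Col1a2 and Col3a1 were found in 94.8%, 98.3% and 100% of pre-pubertal cells at equal depth. Fn1, Dcn, Dpt, Lum and Pdgfra were found in 18.1%, 10.3%, 10.3%, 5.17% and 5.17%. From summed reads, 3 of the 8 were at least 2-fold higher at pre-puberty than at puberty, as were 21.4% of all genes compared. Dcn and Dpt were lower by that much, as were 24.0% of all genes, so the list had no common direction. The 3 adult cells with none of these keratins above the threshold had reads for a median of 4 fibroblast markers. Stage and cell type therefore cannot be told apart in any comparison with pre-puberty, and the values within cells that carry an epithelial marker are given beside it. Those cells are not matched in cell type either. By keratin class (below), pre-pubertal cells above the threshold still had reads for medians of 9 to 10 of the 13 Schwann markers. Such classes had medians of 0 to 1.5 at the later stages.

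The 10 genes together took up 13585 CPM (13549 to 13621) of the pre-pubertal reads, 4031 CPM (4016 to 4046) of the pubertal and 10799 CPM (10752 to 10846) of the adult reads. The sum in a single cell had a median of 12953 CPM before puberty (326 to 37933), 2956 during it (100.5 to 22211) and 9640 in the adult (503 to 31730). Pubertal cells were thus the lowest at the median, and the ranges of all 3 stages overlapped widely. Per length, in RPKM, Fos was the highest of the 10 at each stage, at 2263, 590 and 1919 RPKM from the youngest to the oldest, and Jund was the lowest, at 7.91, 9.57 and 10.1 RPKM. Egr1 came next after Fos at pre-puberty, with 1511 RPKM, and Atf3 at both later stages, with 397 and 747 RPKM. Most neighbours in this order were separated by more than their counting error. The exceptions were Klf4 (81.0 to 83.5 RPKM) and Zfp36 (78.4 to 81.6) at puberty, and Ier2 (91.3 to 98.5) and Junb (88.0 to 94.4) in the adult.

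**Figure D1:**
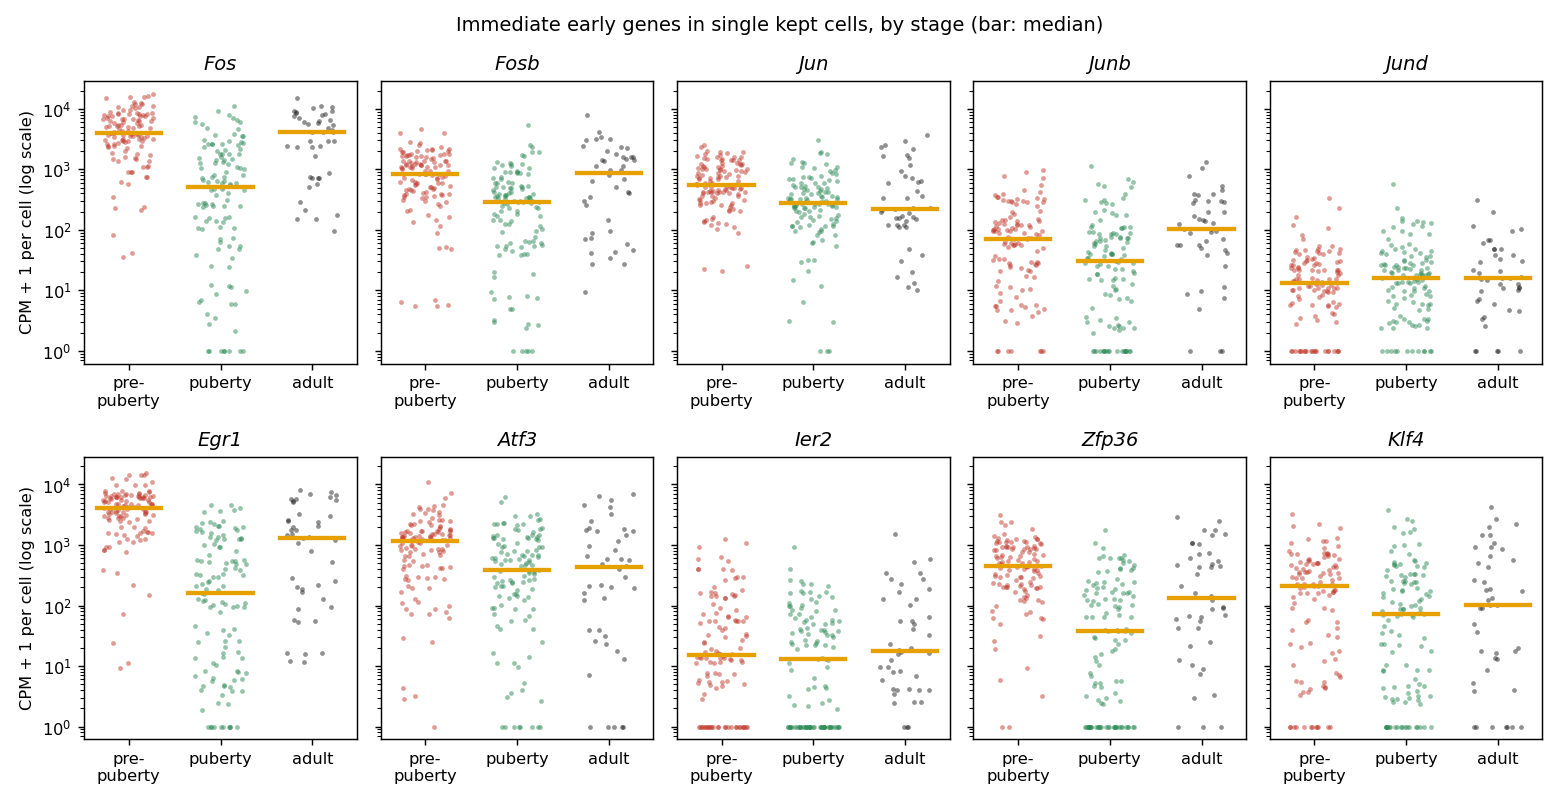
Level of each immediate early gene in every kept cell (points; CPM + 1, log scale) at pre-puberty (red, 116 cells), puberty (green, 119 cells) and in the adult (black, 44 cells), with the median of the cells as a bar. For Fos the medians are 4035, 512 and 4089 CPM before 1 is added, and for Jund they lie between 12.2 and 15.2 CPM at all 3 stages.

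Fos (chr12:85473890-85477274 of mm10) encodes c-Fos, the inducible partner of Jun in AP-1. Single pre-pubertal cells held 35.2 to 17620 CPM of Fos (median 4035), pubertal ones 0 to 11059 (median 512) and adult ones 94.8 to 15266 (median 4089). Pre-pubertal and adult cells had nearly the same median, and the pubertal median was lower than both although the cells overlapped. From the summed reads the level was 4737 CPM in pre-pubertal, 1235 in pubertal and 4016 in adult cells. Fosb (chr7:19302696-19310118) encodes another Fos protein that pairs with Jun, and its level was 946, 434 and 1309 CPM in the same order. Of the RPKM of both Fos genes together, Fos held 90.0% in pre-pubertal, 83.7% in pubertal and 84.7% in adult cells.

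The Jun genes were lower and differed in their pattern. Jun (chr4:95049036-95052222), the founding member, was at 740 CPM in pre-pubertal, 381 in pubertal and 544 in adult cells. Junb (chr8:84976909-84978748) was at 140, 68.0 and 168 CPM, the same order of stages as for Fosb. Jund (chr8:70697739-70700616), known as the Jun gene that is expressed steadily and responds least to stimuli, was at 22.8, 27.5 and 29.0 CPM and was the only member that was lowest at pre-puberty. Among cells with an epithelial marker (22, 113 and 41 cells) this order did not hold, and Jund was at 38.5, 28.6 and 28.5 CPM. The pre-pubertal value rests in part on single cells. In the 7 pre-pubertal cells with both kinds of keratin, 1 cell held 78.7% of the Jund reads. Jund was there at 38.7 CPM with it and 9.53 CPM without it. In the 10 with Krt14 alone, the highest cell was at 338 CPM and the median at 27.4 CPM. Jun made up 73.4%, 72.0% and 62.8% of the summed RPKM of the 3 Jun genes, Junb 24.1%, 22.3% and 33.5%, and Jund 2.50%, 5.77% and 3.70%. The 3 members lowest per length at each stage, Jund, Junb and Ier2, each consist of 1 exon, as does Jun, and their GENCODE transcripts were rich in G and C, with 67.1%, 62.6% and 60.9%. Those values stood at the 99.6, 97.5 and 95.3 percentile of 58797 transcripts. Whether base composition played a part in these low levels was not tested.

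Egr1, a zinc finger factor on chromosome 18 that binds sequences rich in G and C, had the widest span between stages. Its level was 4642 CPM in pre-pubertal, 662 in pubertal and 2100 in adult cells, and the medians over cells were 4149, 157.2 and 1324 CPM, with single cells from 8.12 to 15331, from 0 to 4578 and from 10.7 to 7964 CPM. Atf3 (chr1:191170296-191183333), a stress-induced factor of the ATF family, was at 1359, 786 and 1477 CPM, and Klf4 (chr4:55527137-55532475), a zinc finger factor of epithelia, at 312, 250 and 556 CPM. In the adult a single cell held 32.2% of the Klf4 reads, and without it the level was 393 CPM. Zfp36 (chr7:28376784-28379228) encodes tristetraprolin, which binds AU-rich mRNAs, including those of early response genes, and speeds their decay. It was at 593 CPM in pre-pubertal, 141 in pubertal and 455 in adult cells. Ier2 (chr8:84661331-84662852) was at 94.1, 47.0 and 144 CPM, but 1 adult cell held 43.4% of its adult reads. When the cell with the most Ier2 was left out at every stage, its levels were 80.3, 40.9 and 85.2 CPM.

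Log2 ratios between stages were taken after 5 CPM was added to both levels, which understates the difference of low genes, and a ratio of at least 1 in size, or 2-fold, was counted. Pre-pubertal levels were at least 2-fold above the pubertal ones for 4 of the 10 genes and below them by that much for 0, where 21.4% of all 9869 genes at 10 CPM or more at either stage were higher by that much and 24.0% lower. The 4 were Egr1, with a log2 ratio of 2.80 (2.78 to 2.82), Zfp36 with 2.03 (1.99 to 2.08), Fos with 1.93 (1.92 to 1.95) and Fosb with 1.12 (1.09 to 1.15). Junb, Jun, Ier2 and Atf3 followed at 0.99, 0.95, 0.93 and 0.79, Klf4 was at 0.31, and Jund was the only one on the other side, at -0.23 (-0.36 to -0.10). The median of the 10 was 0.97, and that of all genes tested was -0.12. In single cells, 95.7% of pre-pubertal cells had more Egr1 than the pubertal median, and 94.0% had more Fos. The count of 4 depended on the setting, since several genes lay near 2-fold. It was 7 with TMM (trimmed mean of M values) scaling, where Jun was at 1.02, Junb at 1.06 and Ier2 at 1.00. It was also 7 among cells with an epithelial marker, where these genes were at 1.02, 1.15 and 1.64, Jund was at 0.37 and the median of the 10 was 1.23. The Jund value there rests in part on single cells (above), and the Ier2 value rests in part on 1 pre-pubertal cell. That cell held 67.4% of the Ier2 reads of the 10 pre-pubertal cells with Krt14 alone. Their Ier2 level was 200 CPM with it and 74.3 CPM without it. The count of genes was 3 in cells of 200000 to 600000 reads, where Fosb was at 0.88. Pre-pubertal cells numbered 1 to 37 in the labels and those from 38 on differed in depth, with medians of 937330 and 283492 reads over 12 and 104 kept cells, and the summed level of the 10 genes was 11645 and 14260 CPM, in both cases above the 4031 CPM of puberty. Mitochondrial shares were lowest at pre-puberty too, and their part in the difference was not tested.

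Adult cells stood above pubertal ones for most of the set. The log2 ratio of puberty over adult was -1 or lower for 7 of the 10 genes and 1 or higher for 0, against 20.6% and 28.4% of 9461 genes. Fos was at -1.70 (-1.72 to -1.68), Egr1 at -1.66, Zfp36 at -1.65, Fosb at -1.58, Ier2 at -1.52, Junb at -1.24 and Klf4 at -1.14. Atf3 and Jun were at -0.91 and -0.51, and Jund was level within counting error, at -0.06 (-0.22 to 0.10). The median of the 10 was -1.38, that of all genes tested 0.10, and both this comparison and the one with pre-puberty rest on the same pubertal cells. Over cells the separation differed by gene. Only 9.24% of pubertal cells had more Fos than the adult median, whereas 63.9% had more Jun, although the summed Jun level was lower, and 47.9% had more Ier2. Without the cell with the most reads of the gene at each stage, Ier2 was at -0.97 and Klf4 at -0.79, so both fell short of 2-fold. In cells of 200000 to 600000 reads, Fos, Fosb, Egr1 and Zfp36 stayed past 2-fold (-1.52, -1.52, -1.79 and -1.41), while Ier2 was at -0.37, Klf4 at -0.85 and Junb at -0.95, so that 4 of the 10 were at -1 or lower.

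The difference between puberty and adulthood was also present among cells of like keratins, a comparison that was chosen after the data had been seen. In cells with Krt8 or Krt18 but not Krt14 above 40 RPKM (80 pubertal and 22 adult cells), the median ratio of puberty over adult was -0.97, and 5 of the 10 genes were at -1 or lower, where 22.4% of genes were. In cells above the threshold for both kinds of keratin (24 and 14 cells) the median was -1.19, and 6 of the 10 genes were at -1 or lower, where 24.1% of genes were. Fos was at -1.69 in the former and -1.25 in the latter, and Egr1 at -1.13 and -1.58. Jund was at 0.33 and -0.96, so its near equality over all cells was not seen in both classes. Some of these calls rested on single cells. In the class without Krt14, 1 adult cell held 65.9% of the Ier2 reads. Without the top cell at each stage, Ier2 was there at 36.6 CPM at puberty and 65.3 CPM in the adult. Fosb was then at 419 and 839 CPM, so Ier2 fell short of 2-fold and Fosb lay near it. With both kinds of keratin, Zfp36 was likewise at 163 and 219 CPM, short of 2-fold.

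Between pre-pubertal and adult cells, summed levels differed by less than 2-fold for 9 of the 10 genes. Egr1 was past 2-fold, at 1.14 (1.12 to 1.16), and 0 genes were at -1 or lower, while 31.7% of 9750 genes were higher and 28.9% lower by that much. Fos was at 0.24, Jun at 0.44 and Zfp36 at 0.38, and the other 6 lay between -0.82 for Klf4 and -0.12 for Atf3. The median of the 10 was -0.19 and that of all genes tested 0.03. Over cells the picture differed for some genes, as 85.3% of pre-pubertal cells had more Jun than the adult median (medians 556 and 216 CPM), 81.9% more Zfp36, 74.1% more Atf3 (1176 and 426 CPM) and 62.9% more Klf4, and for Atf3 and Klf4 the summed levels had the other order. The sign of the median was not stable, since it was 0.17 among cells with an epithelial marker and 0.16 among cells of 200000 to 600000 reads.

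Genes known to be induced with this set or to act on it were read from lists. Of 25 other early response genes, 22 could be compared between pre-puberty and puberty, and 8 were at least 2-fold higher at pre-puberty and 0 lower (all genes 21.4% and 24.0%), with a median log2 ratio of 0.66. Nr4a2, an orphan nuclear receptor, was highest at 3.78 (515 against 32.9 CPM), and Btg1, an antiproliferative factor, lowest at -0.60. Between puberty and adulthood, 7 of 22 were at -1 or lower and 0 at 1 or higher (all genes 20.6% and 28.4%), with a median of -0.59, from Ccn2, a matrix protein that is also a target of actin signalling, at -4.14 to Klf6 at 0.80. At puberty 1 cell held 63.9% of the Ccn2 reads. Without the top cell of each stage, Ccn2 was at 5.05 CPM at puberty and 253 CPM in the adult. Btg2 was nearly level from the youngest to the oldest cells, at 970, 917 and 871 CPM, as was Nfkbia, an inhibitor of NF-kB, at 487, 474 and 473 CPM. Between pre-puberty and the adult, 4 were higher and 4 lower (all genes 31.7% and 28.9%), with a median of -0.06.

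The kinases and factors that act on these genes showed no common direction. Of 12 such regulators, which include Srf, Creb1 and the Elk factors, 11 could be compared, and 2 were higher and 3 lower at pre-puberty than at puberty, against the same 21.4% and 24.0% of all genes, with a median of 0.18, from Elk4 at 1.75 to Egfr at -1.83. Between puberty and adulthood 1 was higher and 4 were lower, against 28.4% and 20.6%, with a median of 0.02. Srf, the factor through which serum induces Fos, was at 49.8, 40.5 and 39.8 CPM. In the adult 1 cell held 45.6% of the Srf reads. Without the cell with the most Srf at each stage, its levels were 42.6, 30.0 and 22.6 CPM. Heat shock genes, a separate stress response, had median log2 ratios of -0.35 for pre-puberty over puberty, with 1 of 12 higher and 3 lower (21.4% and 24.0% of all genes), and -0.13 for puberty over adult, with 0 higher and 1 lower (28.4% and 20.6%), that being Hspa1a at -1.66. In the adult 1 cell held 55.8% of the Hspa1a reads. Without the top cell of each stage, Hspa1a was at 8.18 CPM at puberty and 20.8 CPM in the adult, short of 2-fold once 5 CPM is added. The difference between these lists and the immediate early genes was not tested.

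**Figure D2:**
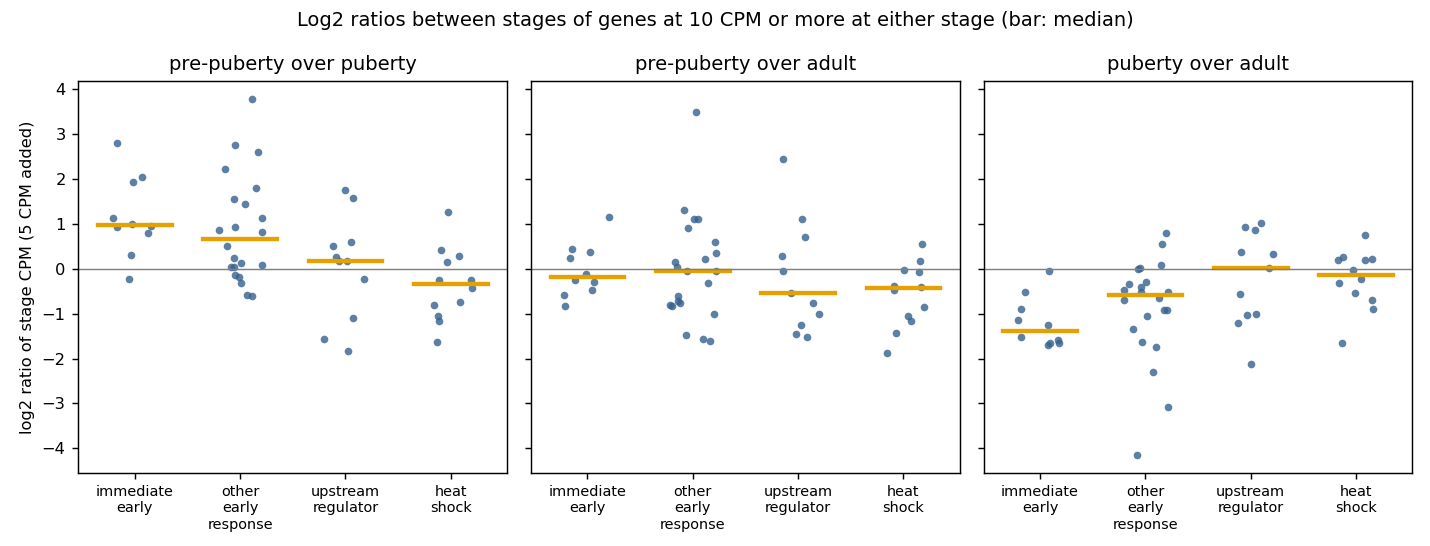
Log2 ratio of the stage levels (5 CPM added) for each gene of 4 lists (points), for the 3 pairs of stages, with the median of a list as a bar. The immediate early genes have medians of 0.97, -0.19 and -1.38, and the heat shock genes -0.35, -0.43 and -0.13.

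The start regions of these genes show what the set shares and does not share in sequence. RefSeq start regions (GRCm38.p6, the assembly of mm10) were found for 8 members, and not for Egr1 and Ier2. In the 250 bases before the start, on either strand, the CArG box bound by Srf was matched in 1 of the 8, against 1.47% of 32851 start regions, the site bound by Creb1 (TGACGTCA) in 0, against 1.55%, and the AP-1 site (TGACTCA or TGAGTCA) in 0, against 4.46%. A TATA box (TATAAA) was matched in 1, against 12.4%, and the site bound by Egr1 (GCGNGGGCG) in 3, against 4.70%. That site is nearly all G and C. The regions of the 3 genes held 74% (Klf4), 68.8% (Fosb) and 64.8% (Zfp36) G and C, where the median of all start regions was 52.4%. The other members' regions ran from 47.6% (Jund) to 66.4% (Junb). The part of base composition in these matches was not tested. An NF-kB site was matched in 0, against 0.140%. No match overlapped a match to another motif. The 3 regions below are those of the gene highest per length at every stage, Fos, and of Zfp36 and Klf4, which have a match to the Egr1 site, since Egr1 itself had the widest span between stages. The other member with such a match is Fosb, whose RefSeq start lies inside the gene as given above, and its region is not shown. Each runs 5′ to 3′ on the strand of the gene and ends at the base before its start, with every match in capitals. Fos (chr12:85473640-85473889, plus strand) holds the TATA box 33 to 28 bases before its start, and Zfp36 (chr7:28379229-28379478, minus strand) the Egr1 site 105 to 97 and the CArG box 58 to 49 bases before. Klf4 (chr4:55532476-55532725, minus strand) holds 2 matches to the Egr1 site on the opposite strand, 211 to 203 and 194 to 186 bases before, and an E-box (CACGTG) 182 to 177 bases before, which 6.02% of start regions hold.
Fos: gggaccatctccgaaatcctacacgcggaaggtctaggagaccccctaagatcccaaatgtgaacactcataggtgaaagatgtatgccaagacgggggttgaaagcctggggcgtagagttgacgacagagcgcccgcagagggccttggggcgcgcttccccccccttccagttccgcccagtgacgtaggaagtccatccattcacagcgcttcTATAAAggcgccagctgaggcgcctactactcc
Zfp36: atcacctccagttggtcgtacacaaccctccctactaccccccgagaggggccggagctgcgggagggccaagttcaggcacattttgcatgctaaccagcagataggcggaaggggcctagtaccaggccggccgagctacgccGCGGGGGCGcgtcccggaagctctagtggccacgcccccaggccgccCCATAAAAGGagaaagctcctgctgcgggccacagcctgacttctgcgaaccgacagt
Klf4: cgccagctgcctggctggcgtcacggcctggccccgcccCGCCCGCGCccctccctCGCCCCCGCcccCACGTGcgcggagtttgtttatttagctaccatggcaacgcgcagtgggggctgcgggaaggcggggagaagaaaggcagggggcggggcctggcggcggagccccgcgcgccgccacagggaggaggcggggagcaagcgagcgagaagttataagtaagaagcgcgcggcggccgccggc
A match describes letters only, and its absence from this window says nothing of sites farther away or of near matches.

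Detection was compared after every kept cell had been thinned at random to 100000 reads. All 116 pre-pubertal cells then had Fos (100%, 96.9 to 100), as did 103 of the 119 at puberty (86.6%, 79.1 to 92.1) and each of the 44 adult ones (100%, 92.0 to 100). Without thinning the pubertal share was 93.3%. Egr1 was found in 99.1%, 78.2% and 97.7% of thinned cells and in 100%, 91.6% and 100% of unthinned ones. For Zfp36, the thinned shares were 96.6%, 63.9% and 88.6% and the unthinned ones 98.3%, 73.1% and 93.2%. Jun was found in nearly every cell, in 100%, 95.0% and 100% after thinning, and Ier2 in 62.9%, 53.8% and 65.9%. Jund was found in 62.1%, 68.9% and 72.7%, which at puberty was above Zfp36. Pubertal cells had the lowest share for 8 of the 10 genes, the exceptions being Jund, lowest at pre-puberty, and Atf3, lowest in the adult with 86.4%. These are reads of amplified cDNA without molecular identifiers, and 1 read in a thinned cell equals 10 CPM.

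Every kept cell held some of these transcripts. The fewest members found in any thinned cell were 3 in pre-pubertal, 3 in pubertal and 6 in adult cells, and the medians were 9, 8 and 9 of 10. The full set of 10 was present in 33.6% of cells before puberty (39 cells, 25.1 to 43.0), 14.3% during it (17 cells, 8.55 to 21.9) and 27.3% in the adult (12 cells, 15.0 to 42.8). At least 8 were found in 84.5%, 58.8% and 86.4%. A cell with 0 members was seen 0 times, which allows shares of up to 3.13%, 3.05% and 8.04% at the 3 stages. The 16 pubertal cells with no Fos read were not without the other members, since 15 had Jun and 13 each had Jund and Atf3. Egr1 was found in 7 of these 16 cells (43.8%, 19.8 to 70.1) and in 86 of the 103 with Fos (83.5%, 74.9 to 90.1).

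**Figure D3:**
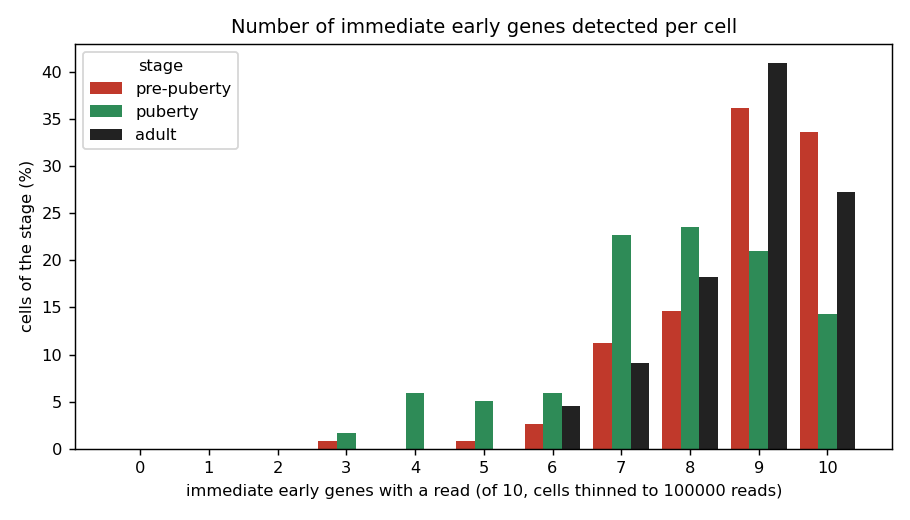
Share of the cells of each stage (bars, %) by the number of immediate early genes with a read in the cell thinned to 100000 reads. The most common number is 9 at pre-puberty (36.2% of cells) and in the adult (40.9%), and 8 at puberty (23.5%).

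Within a stage the members were loosely correlated from cell to cell. Their median was above that of all gene pairs at each stage, but in the adult not above that of housekeeping pairs. A stage mixes the keratin classes described below, and in the largest pubertal class the median was 0.13. Over the 45 pairs of genes, the median Spearman rho on thinned cells was 0.21 in 116 pre-pubertal, 0.20 in 119 pubertal and 0.15 in 44 adult cells. For all pairs of genes found in at least 50% of cells the medians were 0.03, 0.06 and 0.04, and for pairs of housekeeping genes 0.08, 0.16 and 0.18. A rho above 0.3 was seen for 11, 14 and 11 of the 45 pairs, where 0.375%, 1.25% and 6.69% of all gene pairs were past that value. These correlations describe cells that share mice, sorts and chips which the labels do not name, and the adult ones rest on few cells.

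Fos and Fosb were among the members with the higher values at each stage, and Egr1 at puberty. The median rho of Fos to the other members was 0.26, 0.31 and 0.34 from the youngest to the oldest cells, that of Fosb 0.32, 0.32 and 0.25 and that of Egr1 0.22, 0.33 and 0.18. In the adult Atf3 (0.26), Jun (0.25) and Zfp36 (0.20) were above Egr1. The rho of Fos with Fosb was 0.47 in pre-pubertal, 0.37 in pubertal and 0.39 in adult cells, and with Jun it was 0.48, 0.31 and 0.55. With Egr1 it was 0.50, 0.42 and 0.28. Jun and Egr1 had the highest value at pre-puberty, 0.53, but only 0.15 at puberty and 0.18 in the adult. Zfp36 and Egr1 were close in the pubertal and adult cells (0.36 and 0.44) and less so at pre-puberty (0.17). Ier2 had no partner above 0.3 at any stage, with a median rho of 0.16, 0.14 and 0.02 to the other members, and Jund had median values of 0.19, 0.15 and 0.05. Both are among the members with the fewest reads, and the part of counting error in their low values was not tested. The lowest pairs were Atf3 with Klf4 at puberty, at -0.10, and Atf3 with Jund in the adult, at -0.13.

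**Figure D4:**
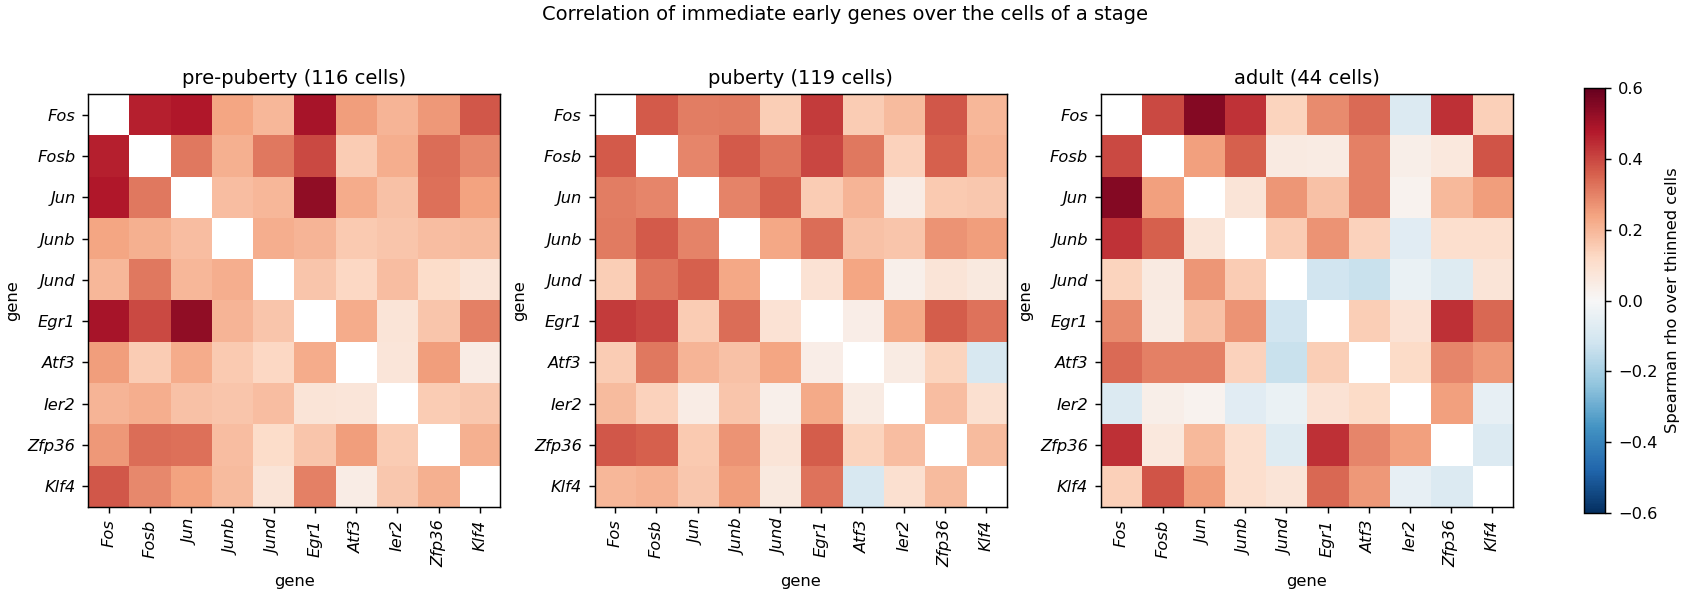
Spearman rho between each pair of immediate early genes over the thinned cells of a stage (colour, from -0.6 to 0.6; the diagonal is blank). All 45 pairs are above 0 in pre-pubertal, 44 in pubertal and 37 in adult cells, and the darkest square of each panel is Jun with Egr1 (0.53), Fos with Egr1 (0.42) and Fos with Jun (0.55).

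The mean of the 10 genes on a log scale, log2(CPM + 10), gave each cell a score. The rho of the score with the depth of the cell was -0.11 in pre-pubertal, -0.12 in pubertal and -0.05 in adult cells, and with the number of genes found after thinning 0.01, 0.09 and 0.07. With the mitochondrial share it was -0.0013, 0.07 and 0.21. The other early response genes had a rho with the score of 0.51, 0.33 and 0.36 and the heat shock genes one of 0.27, 0.30 and 0.16. The basal marker list was at 0.16, 0.15 and 0.37, in the adult about level with the other early response genes, the luminal list at 0.10, 0.01 and -0.12, and the Schwann list at -0.01, 0.08 and 0.13.

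The single genes most like the score were listed by rho among genes found in at least 50% of the thinned cells. At pre-puberty (1750 genes) they were Btg2, an antiproliferative early response gene, at 0.56, Dusp1, a phosphatase that turns off MAP kinases, at 0.39, the chaperone gene Dnaja1 at 0.36, Nfkbiz, of the IkB family, at 0.34 and Dnajb4 at 0.30. At puberty (1572 genes) they were Ifrd1 at 0.38, Btg2 at 0.35, the survival gene Mcl1 at 0.33, the splicing factor gene Tra2b at 0.32 and Kmt2e at 0.32. Btg2 was thus near the top at both stages, while its own level was nearly the same across stages. In the adult (1173 genes) the list was another one, with Rbpms at 0.54, Svil and Flna, which both bind actin, at 0.51 and 0.51, Zfp36l1, a relative of Zfp36, at 0.49 and the tropomyosin gene Tpm1 at 0.48. Btg2 had a rho of only 0.16 there, rank 232. The basal marker list also moved with the adult score (0.37, above), and its part in the adult list was not tested. At the other end stood Ppia (-0.37), Hdac4, Ccdc6, Cox5a and Srek1 at pre-puberty, Stmn1 (-0.33), Mdh1, Atp5a1, Gm7591 and Septin2 at puberty, and Top1 (-0.39), Septin2, Tm9sf3 and Twf1 in the adult.

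Keratins divided the cells by lineage, since Krt14 marks basal (myoepithelial) cells and Krt8 and Krt18 mark luminal cells. With 40 RPKM as the threshold for a present gene, 5 pubertal cells had Krt14 alone, 24 had both kinds, 80 had Krt8 or Krt18 alone and 10 had neither. In the adult these numbers were 5, 14, 22 and 3, and at pre-puberty 10, 7, 2 and 97. The other markers followed the classes, as cells with Krt14 alone had reads for a median of 8 of 10 basal markers at puberty and 10 in the adult, against 1 and 2.5 in cells with Krt8 or Krt18 alone. Schwann markers were at a median of 9 to 10 of 13 in every keratin class at pre-puberty, so the pre-pubertal classes are not given as lineages. There, Fos was at 4807 CPM with Krt14 alone, 6224 with both, 3416 with Krt8 or Krt18 alone and 4660 with neither. Egr1 was at 3684, 6579, 4898 and 4655 CPM in the same order.

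Egr1 was higher in Krt14 cells than in Krt8/18 cells at both stages. In the 5 pubertal cells with Krt14 alone it was at 1043, 1378, 1674, 1774 and 2060 CPM, and in the 80 with Krt8 or Krt18 alone from 0 to 4578 with a median of 93.0. All 5 were above the median of the 80, though within their range. In the 5 adult cells it was at 57.7, 1949, 3239, 5133 and 5736 CPM, against a range of 10.7 to 7964 and a median of 175 in the 22, so 4 of the 5 were above that median. The log2 ratio from summed reads was 1.64 (1.59 to 1.70) at puberty and 1.60 (1.54 to 1.66) in the adult. Cells with both kinds of keratin lay between, at 1005 and 3007 CPM. When all Krt14-positive cells were taken against Krt8/18 cells, a division chosen after the data had been seen, the ratio was 1.19 at puberty (29 against 80 cells) and 1.49 in the adult (19 against 22), and Egr1 was found in 100% of thinned Krt14-positive cells at both stages, against 75.0% and 95.5%. With any keratin read in a thinned cell as the threshold, which left 6 pubertal cells and 1 adult cell with Krt14 alone, the ratio was 0.94 and 0.73.

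The other members did not follow Egr1 as a group. At puberty 1 of the 10 genes was at least 2-fold higher with Krt14 alone and 3 were lower, where 21.1% of 8663 genes were higher and 51.7% lower. The lower ones were Jund at -1.62, Zfp36 at -1.27 and Fosb at -1.17. In the adult 3 were higher and 1 was lower, where 24.1% of 7416 genes were higher and 58.4% lower. Fosb was at 1.46, Junb at 1.27 and Jun at -1.44. The median of the 10 was -0.09 at puberty and 0.32 in the adult, and that of all genes tested -1.16 and -1.72 over classes of unequal cell number. Both medians of the 10 depended on the division, from -0.77 to 0.10 at puberty and from -0.62 to 0.41 in the adult over the alternatives run. Fosb in Krt14 cells rested on single cells. In the 5 pubertal cells it was at 2.01, 3.93, 8.46, 428 and 586 CPM, and in the 5 adult cells at 45.1, 86.5, 1404, 1998 and 7774 CPM, where the highest cell held 68.2% of the reads. Without that cell the adult level was 1138 CPM, against 985 CPM in cells with Krt8 or Krt18 alone.

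With all Krt14-positive cells the larger classes gave fewer differences in summed levels. At puberty 1 gene, Egr1, was past 2-fold upward (21.8% of 9256 genes) and 1, Jund at -1.09, downward (25.4%). In the adult 3 were upward (33.5% of 8249 genes), namely Klf4 at 1.74, Egr1 at 1.49 and Junb at 1.35, and 0 downward (37.3%), with Jun at -0.92. The Klf4 value rests in part on 1 cell, which held 50.7% of the reads in the 14 adult cells with both kinds of keratin. Fos differed little by keratin, with ratios of 0.43 at puberty and 0.20 in the adult from summed reads, but at puberty the median cell had 1542 CPM when Krt14-positive and 408 CPM with Krt8 or Krt18 alone, the latter with a highest cell of 11059 CPM. Other pubertal medians stood apart too, with Ier2 at 24.8 against 3.57 CPM, Zfp36 at 121 against 32.0, Klf4 at 161 against 43.7 and Junb at 60.1 against 27.6. Jund (9.06 against 19.8 CPM) and Atf3 (370 against 521) had the other order. In the adult the medians were 55.1 against 11.1 CPM for Ier2 and 178 against 32.6 for Klf4. There Jun (199 against 283 CPM) and Jund (11.8 against 15.1) had the other order. Median depth in these classes ran from 527363 reads (both kinds) to 765897 (Krt14 alone) at puberty and from 323670 (both kinds) to 489165 (Krt14 alone) in the adult, and its part in the differences was not tested.

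**Figure D5:**
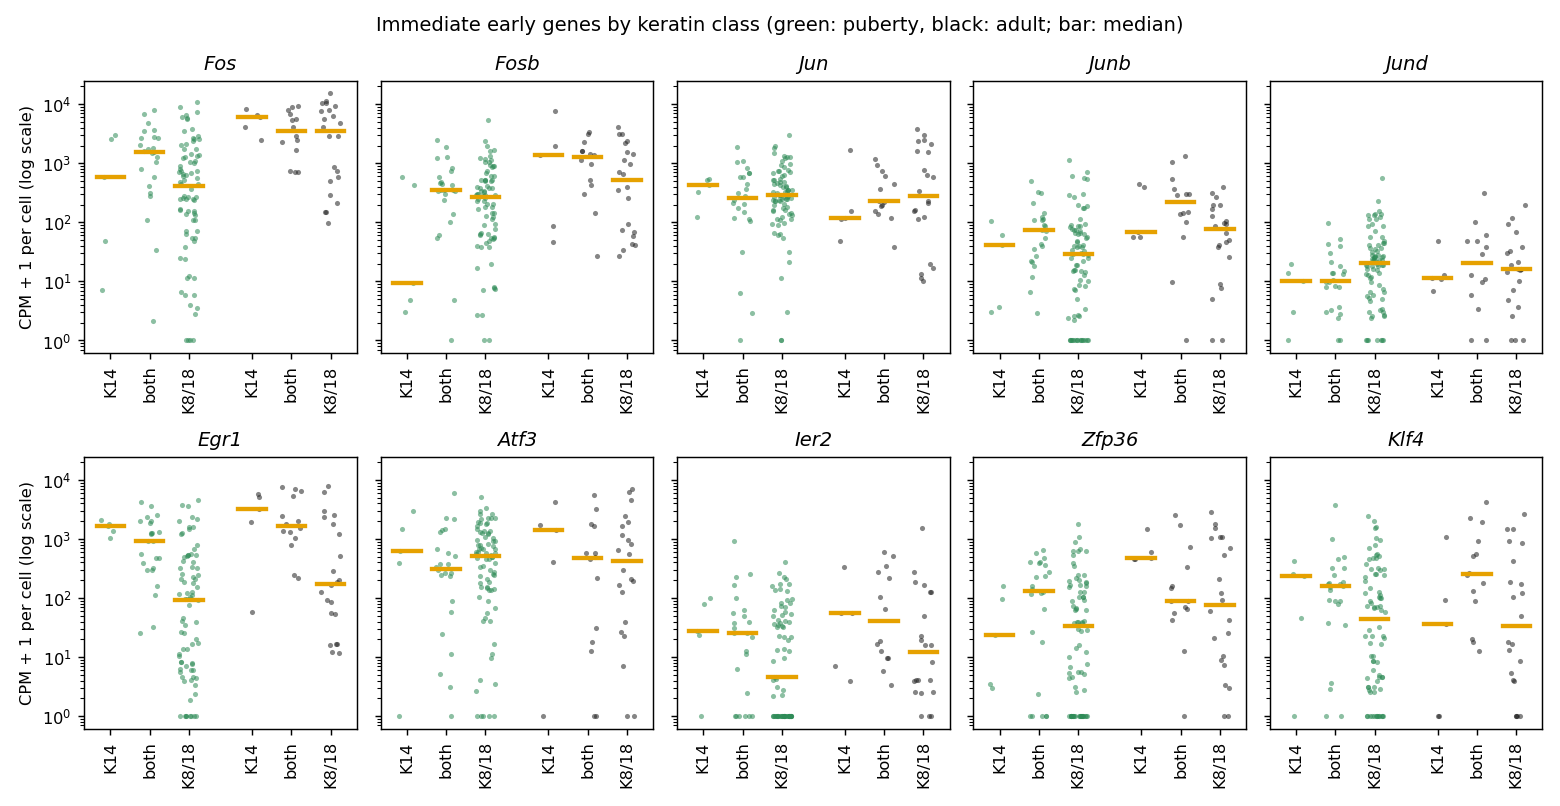
Level of each immediate early gene (CPM + 1, log scale) in single pubertal (green) and adult (black) cells with Krt14 alone (K14), both kinds of keratin (both) or Krt8 or Krt18 alone (K8/18) above 40 RPKM, with the median as a bar. For Egr1 the pubertal medians are 1674, 915 and 93.0 CPM and the adult ones 3239, 1668 and 175 CPM.

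The median rho of the members in single keratin classes lay on both sides of that of the whole stage, but several classes hold few cells. At puberty the median rho of the 45 pairs was 0.13 in the 80 cells with Krt8 or Krt18 alone and 0.23 in the 24 with both kinds, and 0.40 in the 10 with neither. A rho above 0.3 was seen for 8.89%, 35.6% and 53.3% of pairs in these classes, against 31.1% over all pubertal cells. In the adult the median rho was 0.22 in the 22 cells with Krt8 or Krt18 alone and -0.0044 in the 14 with both kinds, where so few cells leave it imprecise. At pre-puberty it was 0.21 in the 97 cells with neither keratin and 0.32 in the 10 with Krt14 alone. The values from classes of 10 cells are imprecise too, and the differences between classes were not tested.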

How the data were processed

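Whole-number counts of read pairs per gene were deposited by the authors for each cell, with the gene's length in bases. Per the labels and the study's methods, reads were mapped to mm10 with Subread 1.4.6 and assigned to Entrez genes with featureCounts and its RefSeq annotation. How shared read pairs were treated is not given in the sources used here, so keratin values, which have pseudogenes, are uncertain. No molecular identifiers were used. Each well was inspected by the authors, and no doublet caller was run.

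Genes were named by RefSeq (25275 of 27179 matched). As in the study, the unmatched genes, 15 of the mitochondrion and 118 for ribosomal proteins were left out, after which the coverage filter was applied. Counts were summed per stage or keratin class (threshold 40 RPKM) and scaled to CPM or, with the deposited lengths, RPKM. Intervals of levels and shares are exact Poisson or Clopper-Pearson intervals at 95%. For a log2 ratio, the lower limit of the first level was set against the upper limit of the second, and the reverse. With 5 CPM added to each limit, this gives an interval wider than a 95% one. Cells were thinned to 100000 reads (seed 1) for shares and correlations. Trimmed mean of M values (TMM) factors came from edgeR 4.0.16 in R 4.3.3, and the rest from Python 3.11.15 with numpy 2.4.6, scipy 1.17.1 and pandas 2.3.3. The calculations were tested on simulated cells.

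The 10 genes and all lists were chosen with earlier results of these data known. Beyond these genes, the text names the extremes of each list and the 5 genes with the highest and the lowest rho to the score at each stage. The top cell of an immediate early gene is given where it held more than 25% of the reads of a stage. For genes of the other lists it is given only in part. The levels of Btg2, Nfkbia and Srf were added after they had been seen. Of the genes this rule names, 1 is not reported here.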

Additional observations from a re-analysis of the deposited data

Results flagged for a closer look

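Fosb had opposite signs at both stages when cells with Krt14 alone were set against cells with Krt8 or Krt18 alone. The log2 ratio was -1.17 at puberty (5 against 80 cells) and 1.46 in the adult (5 against 22 cells). Each stage is 1 sample, so the difference between the stages was not tested, and without the adult cell with the most Fosb reads the adult Krt14 level was 1138 CPM, against 2725 CPM with it.

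Cells below the coverage filter, which enter only the alternative run with no coverage filter, also held reads of the 10 immediate early genes. Their summed level was 10940 CPM in 28 pre-pubertal cells (10661 to 11224), 6060 CPM in 17 pubertal cells (5885 to 6239) and 9968 CPM in 22 adult cells (9673 to 10268). The order of the stages was that of the kept cells for this sum, but not for every gene. Below the filter, Jun was at 667, 1877 and 1020 CPM and Junb at 184, 659 and 252 CPM, so both were highest at puberty. Fos, Fosb, Zfp36 and Klf4 were lowest at puberty there too. The median depth of these cells was 11329, 33276 and 14390 reads.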

How the results depend on the processing

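No paired analysis was possible because cell numbers in the labels only name cells, each stage is 1 sample and no result comes from a test. The median log2 ratio of the 10 genes for pre-puberty over puberty (0.97) stayed above 0 in every alternative run. It was 0.88 with equal weight for each cell, 0.91 without the top cell of each gene, 0.90 with no coverage filter, 1.04 with TMM factors, 0.71 in cells of 200000 to 600000 reads and 1.23 in cells with an epithelial marker. For pre-puberty over adult (-0.19), the same settings gave -0.043 (equal weight), -0.039 (no top cell), 0.16 (depth window) and 0.17 (epithelial marker), so its sign was not stable. For puberty over adult (-1.38) they gave -1.18, -1.12 and -0.90 (equal weight, no top cell, depth window), and -0.97 and -1.19 in the keratin classes added after the data had been seen. The count of genes at least 2-fold apart moved from 4 to 7 for pre-puberty over puberty, both with TMM factors and in cells with an epithelial marker, and from 7 to 4 for puberty over adult in the depth window. The median pairwise rho, 0.21, 0.20 and 0.15 from pre-puberty to adult, was 0.22, 0.21 and 0.16 on unthinned counts, 0.20, 0.24 and 0.20 in the depth window, and 0.20 at pre-puberty in cells numbered 38 and above. Pearson's r gave 0.23, 0.21 and 0.17.

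The median of the keratin comparison at puberty (-0.09) was -0.26 with equal weight, -0.42 without the top cells, -0.77 with any read as the threshold, -0.29 with 100 RPKM and 0.10 with all Krt14-positive cells, a division added after the data had been seen. In the adult (0.32) it was 0.24, -0.055, -0.62, 0.21 and 0.18 in the same order, and 0.41 with TMM factors. The count of genes lower with Krt14 alone in the adult (1) was 2 with 100 RPKM, 3 without the top cells, 5 with any read and 0 with all Krt14-positive cells, and at puberty (3) it was 1 with all Krt14-positive cells. The count higher was 2 with equal weight, with any read and without the top cells in the adult (3), and 0 with any read at puberty (1). The alternative with any read leaves 6 pubertal and 1 adult cell with Krt14 alone. Of the single-gene ratios past 2-fold, only Zfp36 at puberty changed sign in an alternative run, from -1.27 with Krt14 alone to 0.090 with all Krt14-positive cells. The cause of these shifts was not tested. With 1 CPM added in place of 5, none of the 5 median ratios moved beyond counting error, and with 200000 reads and 2000 genes as the coverage filter none of the 3 between stages did. With 1 sample a stage the spread between mice is unknown, and each later stage has 5 cells with Krt14 alone.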
